A study of Mus musculus with 6 samples.

Results

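The MCM family holds the subunits of the replicative DNA helicase and their relatives. The 8 genes described here are Mcm2, Mcm3, Mcm4, Mcm5, Mcm6, Mcm7, Mcm8 and Mcm10, and their probes were found by gene symbol. Of these genes, 7 were read by 13 of the 46621 probes in the table of normalized intensities, 11 probes under the family symbol itself and 2 under older clone names of Mcm10. No probe carried the symbol of Mcm3, so its level is not described. In all, 16213 genes had a probe that could be tested. The genes were chosen by name, but with the null and wild-type intensities of these same arrays known, including the disagreement between the probes of Mcm6. The values of the MCM probes are therefore given as a description, without p-values, and nothing is supported with them.

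Mcm2 to Mcm7 encode the subunits of a ring-shaped hexamer. During G1 the origin recognition complex, Cdc6 and Cdt1 load the ring onto DNA at replication origins, a step called licensing. At the start of S phase Cdc45 and the GINS complex join it, with the help of kinases, and the assembly becomes the active helicase that unwinds DNA ahead of the polymerases. Mcm10 is a helicase activation factor outside the ring, and Mcm8 is a related helicase known from homologous recombination. In proliferating cells, fibroblasts included, MCM genes are textbook targets of the E2F transcription factors.

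The samples were mouse embryonic fibroblasts of the C57Bl/6 strain with a labelled age of 13 days. The 3 wild-type samples were Klf4 +/+ and the 3 null samples were Klf4 -/-, both in medium with 10% serum, and each was measured on 1 Illumina bead array. Klf4 encodes a zinc-finger transcription factor, and the title of the series ties its disruption to faster proliferation. The labels name no separate embryos, clones or cultures behind the replicates, so the spread between arrays may be technical, and a difference between cultures cannot be told apart from one of genotype.

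On each array a background floor was estimated from the values themselves. It fell at an intensity of 54.0 to 54.2, and 21825 probes above it on at least 3 of the 6 arrays were tested. Between null and wild-type arrays 38.9% of these probes passed an adjusted p of 0.05 in limma's moderated test, 19.0% higher and 19.9% lower in null cells. Of the 3 probes of the disrupted gene, 2 were at background on every null array and the brightest, ILMN_2593684, was higher there, with a mean of 715 against 426 in wild type. Among 10 fibroblast markers, 9 had a probe above the floor on all 6 arrays, and in limma's test 3 rose and 3 fell (60.0% changed, next to 39.9% of all genes). The collagen genes Col3a1, Col1a1 and Col5a1 rose 5.65-fold, 2.10-fold and 1.26-fold. Thy1 fell at least 60.9-fold, to background on every null array, Pdgfra fell 1.80-fold and Col1a2 1.26-fold. The wild-type signal of Thy1 alone brought its probe past the filter, so the 60.0% is a description only. Of 17 markers of epithelial, leukocyte, endothelial and pluripotent cells, 7 had a probe that could be tested and 2, Cd68 and Kdr, were above the floor on all 6 arrays, while Epcam, Ptprc and Pecam1 were not tested. Sox2 rose and Cdh5 fell, both near the floor, and the part of all these markers in the results was not tested.

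The following promoter stretches show the sequence setting of 5 of the genes, because MCM genes are known as E2F targets. They were taken from RefSeq start sites on build GRCm38.p6, which gave 300-base windows, reaching from 250 bases before the start to 50 after it, for 7 of the 8 genes. Each is written 5′ to 3′ on the strand of its gene. Capitals mark E2F-type matches in Mcm5, Mcm6 and Mcm7, the Klf-type match in Mcm2, and CCAAT boxes in Mcm10. They lie at chr8:75109344-75109376 (plus strand) for Mcm5, chr1:128359737-128359826 (minus) for Mcm6, chr5:138172032-138172061 (minus) for Mcm7, chr6:88898788-88898820 (minus) for Mcm2 and chr2:5012802-5012901 (minus) for Mcm10.
Mcm5: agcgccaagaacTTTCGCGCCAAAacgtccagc
Mcm6: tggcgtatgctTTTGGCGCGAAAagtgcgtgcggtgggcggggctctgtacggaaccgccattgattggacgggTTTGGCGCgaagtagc
Mcm7: ttaatttcgaaccGCGGGAAAcagggtgtc
Mcm2: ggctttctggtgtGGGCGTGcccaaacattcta
Mcm10: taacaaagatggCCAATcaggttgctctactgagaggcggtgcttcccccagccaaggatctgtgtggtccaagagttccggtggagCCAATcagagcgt

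E2F-type matches were counted on both strands as TTTCCCGC, TTTGGCGC, TTTCGCGC or TTTGCCGC. They occurred in the windows of 5 of the 7 genes (Mcm3, Mcm5, Mcm6, Mcm7 and Mcm8) and in 2.26% of all 32851 promoter windows. In Mcm5 and in Mcm6 a pair of matches on opposite strands overlapped, as the 12-letter runs of capitals show, and Mcm6 had a further match 47 bases before the start. The windows of Mcm2 and Mcm10 held none of these letters. A Klf-type match, GGGTGTG or GGGCGTG on either strand, occurred in 1 of the 7 genes, Mcm2, and in 15.5% of all windows. CCAAT on either strand occurred in all 7 genes with a window and in 37.4% of all windows. A match is a description of the letters only, and bound factors were not measured.

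**Figure D1:**
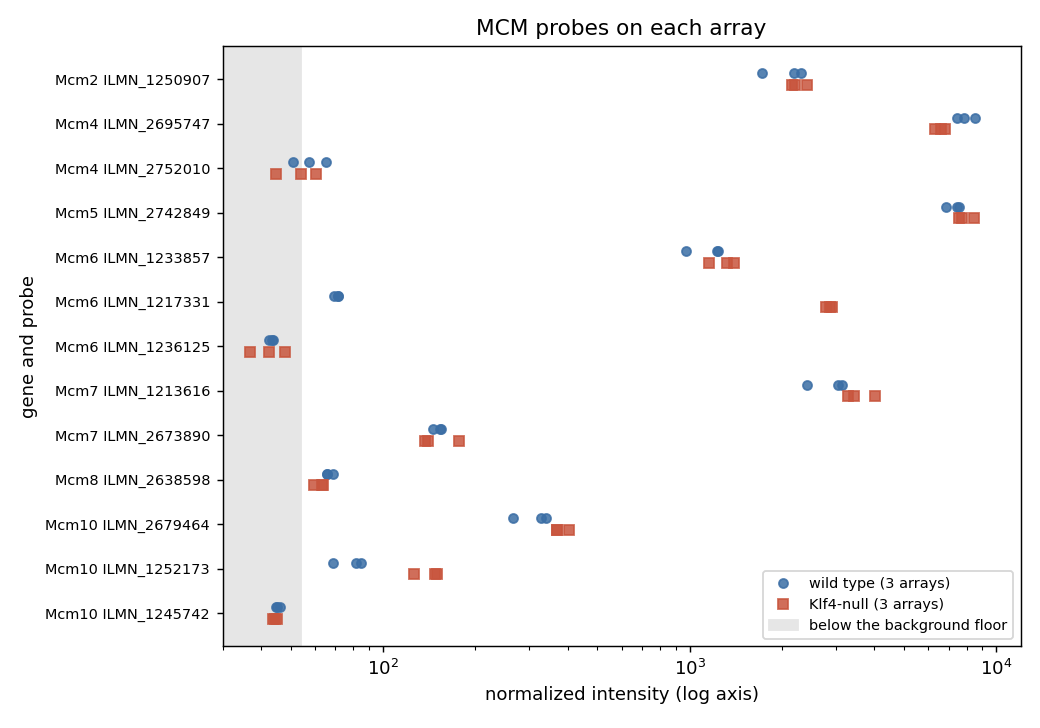
Normalized intensity (log axis) of each of the 13 MCM probes on the 3 wild-type arrays (circles) and the 3 Klf4-null arrays (squares); the shaded area lies below the background floor. The groups lie close together on all probes but ILMN_1217331 of Mcm6, with means of 70.7 in wild type and 2855 in null cells, and, to a lesser degree, ILMN_1252173 of Mcm10.

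Of the 13 MCM probes, 11 were above the floor on at least 3 arrays and 10 of them on all 6. One probe of Mcm6 and one of Mcm10 were at background on every array. The threshold was passed by 5 of the 11 tested probes (45.5%), 4 higher and 1 lower in null cells, next to 38.9% of all probes. For 6 of the 11 the groups had no overlap, next to 47.3% of all probes, with the null arrays above on 4 (22.3% of all probes) and below on 2 (25.0%). The median log2 fold change (null minus wild type) of the 11 was 0.13, and that of all tested probes was -0.02. Since this contrast was in view when the family was chosen, nothing is read from these shares.

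Mcm6 encodes a subunit of the ring and was read by 3 probes that disagreed. Probe ILMN_1217331 had intensities of 71.6, 71.6 and 69.1 on the wild-type arrays and of 2911, 2867 and 2787 on the null arrays. The wild-type values were just above background and close to each other, and every null array was far above them, a 40.4-fold ratio (log2 fold change 5.33, SE 0.07, n = 3 per group). Probe ILMN_1233857 gave 1230, 972 and 1240 on the wild-type arrays, and the null arrays read 1396, 1324 and 1157. Its groups overlapped, and the ratio was 1.13-fold (log2 fold change 0.18, SE 0.11). The third probe, ILMN_1236125, lay between 36.7 and 48.0 on all arrays, below the floor throughout.

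The gap between the log2 fold changes of the first pair of Mcm6 probes was 5.16. Among the 4093 genes with at least 2 tested probes, this was the largest gap, the median gap was 0.25, and 2 genes, Mcm6 and Bicc1, had a gap of 5 or more. A gap of at least 1 was found in 331 of these genes. Which of the probes follows the level of Mcm6 messenger RNA cannot be told from the table, which holds no probe sequences or transcript positions. ILMN_1233857 was the brighter probe by mean log2 intensity, while ILMN_1217331 was brighter than it on every null array and dimmer on every wild-type array.

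**Figure D2:**
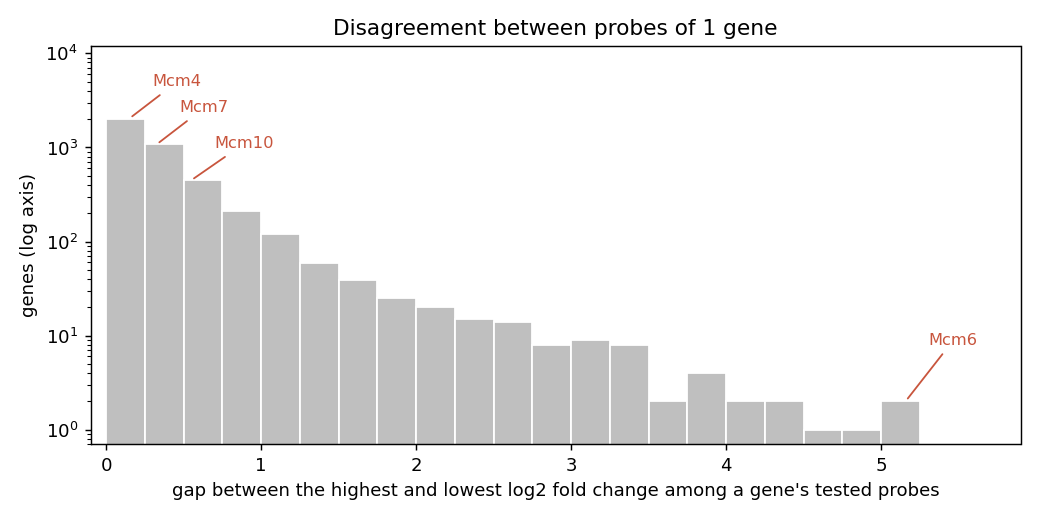
Number of genes (log axis) by the gap between the highest and lowest log2 fold change among their tested probes, for the 4093 genes with at least 2. The MCM genes with 2 tested probes are marked; Mcm6, at 5.16, sits in the last bin, and Mcm4, Mcm7 and Mcm10 sit below 0.6.

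The other ring subunits differed little in comparison. Mcm4 was the only one whose main probe, ILMN_2695747, was lower in null cells, at 6793, 6600 and 6318 on the null arrays against 7873, 7454 and 8534 on the wild-type arrays. All null arrays lay below all wild-type arrays, at a ratio of 1.21-fold (7954 ± 545 against 6570 ± 239, SD, n = 3; log2 fold change -0.27, SE 0.08). The other Mcm4 probe, ILMN_2752010, straddled the floor in both groups, between 44.7 and 65.1, and its log2 fold change was -0.12 (SE 0.12) with overlapping groups.

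Mcm7, another ring subunit, was higher in null cells on its bright probe ILMN_1213616. The wild-type arrays gave 3046, 2417 and 3149 and the null arrays 4017, 3297 and 3433. The groups did not overlap, but the lowest null value exceeded the highest wild-type value by less than the spread within either group (2871 ± 396 against 3583 ± 383; ratio 1.25-fold, log2 fold change 0.32, SE 0.11). The dim Mcm7 probe ILMN_2673890 did not follow it. It gave 145, 153 and 154 on wild-type arrays, then 177, 140 and 137 on null arrays, of which the first was the highest of all 6 and the others the lowest (log2 fold change -0.0014, SE 0.099).

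Mcm2 and Mcm5, the neighbours in the ring that form the gate through which DNA enters, each had 1 probe, and neither differed beyond the spread of the arrays. The wild-type arrays read 2195, 1718 and 2310 for Mcm2 on ILMN_1250907, and the null arrays read 2419, 2156 and 2204. The groups overlapped and the log2 fold change was 0.13 (SE 0.11). For Mcm5 on ILMN_2742849 the wild-type values of 7443, 6864 and 7578 again overlapped the null values of 7541, 8436 and 7749, with a log2 fold change of 0.12 (SE 0.08).

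Of the family members outside the ring, Mcm10 was higher in null cells on both probes that were above background. Probe ILMN_2679464 read 404, 369 and 370 on the null arrays, all above the 327, 265 and 340 of the wild-type arrays (ratio 1.23-fold, log2 fold change 0.30, SE 0.10). Probe ILMN_1252173, deposited under a clone name, read 126, 147 and 150 on the null arrays against 84.6, 81.9 and 68.9 on the wild-type arrays. The groups were clearly apart, at 1.80-fold (log2 fold change 0.85, SE 0.10). Its signal was close to the floor in wild type, where any background left in the values would make the ratio too small. The third Mcm10 probe, ILMN_1245742, was below the floor, between 43.7 and 46.2.

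Mcm8 was dim on ILMN_2638598, with null values of 59.6, 63.0 and 63.5 against wild-type values of 65.7, 68.5 and 65.8. The null arrays lay just below the wild-type arrays, and the log2 fold change was -0.10 (SE 0.08), close to its error, on a probe near the floor.

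**Figure D3:**
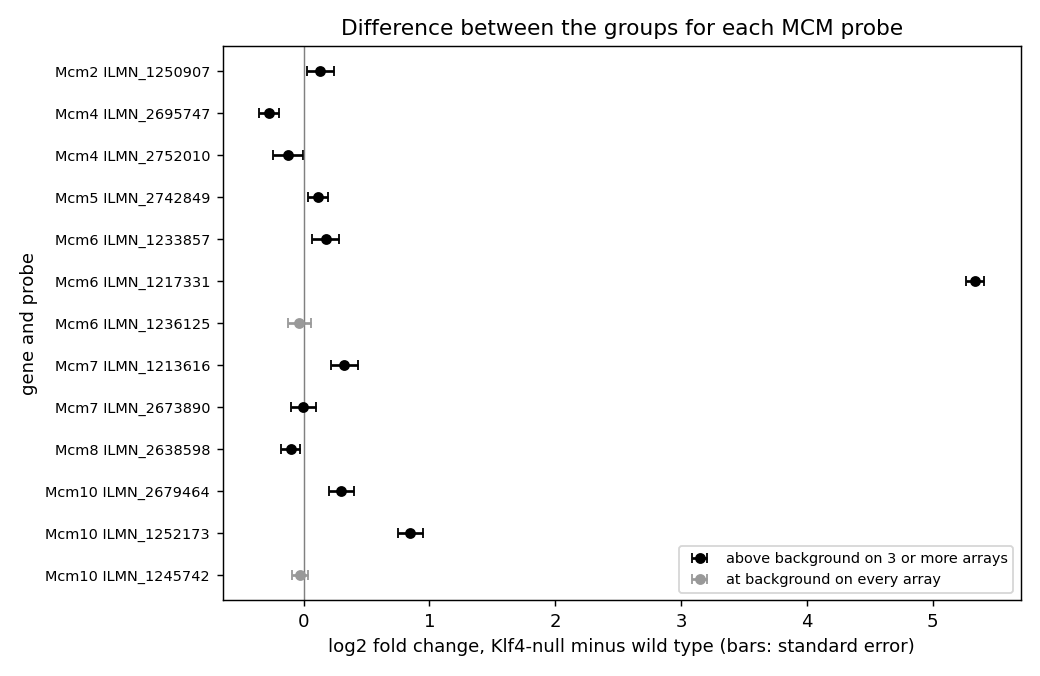
Log2 fold change (Klf4-null minus wild type) of each MCM probe with its standard error; grey points were at background on every array. Probe ILMN_1217331 of Mcm6 stands at 5.33, ILMN_1252173 of Mcm10 at 0.85, and all others lie between -0.27 and 0.32.

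Part of the small differences moved with 1 array. Wild-type array 2 gave the lowest wild-type value for the brightest probe of 6 of the 7 genes, all but Mcm8, while it was the lowest wild-type array for 34.0% of all tested probes. Averaged over the brightest probes of Mcm2, Mcm4, Mcm5, Mcm6 and Mcm7, each centred on its own mean, it stood at -0.23 on the log2 scale, against 0.02 and 0.07 on the other wild-type arrays. The 3 null arrays stood at 0.12, 0.04 and -0.02, and the groups overlapped in this mean. Without wild-type array 2, the log2 fold change of Mcm2 went from 0.13 to 0.0034, that of Mcm6 on ILMN_1233857 from 0.18 to 0.06, that of Mcm7 on ILMN_1213616 from 0.32 to 0.20 and that of Mcm10 on ILMN_2679464 from 0.30 to 0.19. The number of MCM probes past the threshold was then 3 instead of 5, and it was also 3 without null array 1. The number of all probes past it fell as well, from 8483 to 7772 without wild-type array 2 and to 7819 without null array 1. Mcm4 on ILMN_2695747 gave -0.32 without wild-type array 2, and the higher values of Mcm6 on ILMN_1217331 (5.34) and of Mcm10 on ILMN_1252173 (0.88) stayed as large. What set array 2 apart was not tested.

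**Figure D4:**
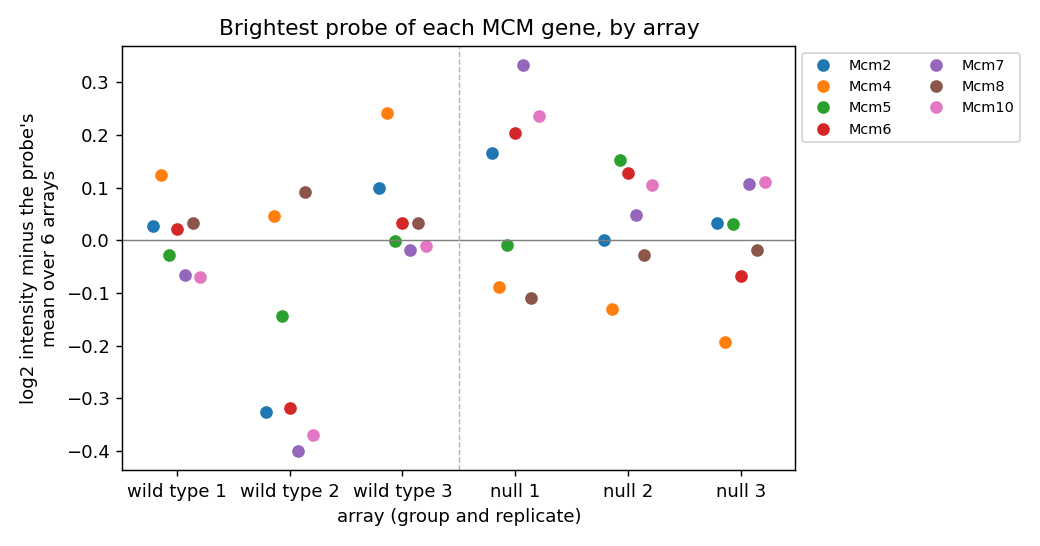
Log2 intensity of the brightest probe of each of the 7 MCM genes on each array, minus that probe's mean over the 6 arrays; the dashed line divides wild type from null. Wild-type array 2 is lowest among the wild-type arrays for all but Mcm8. Mcm4 and Mcm8 are lower on every null array than on every wild-type array.

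The genes that load and activate the ring were taken as a list of 25, chosen with earlier results of these data known and read by 1 probe each, the one with the highest mean log2 intensity. Of the 24 tested, 6 rose, 3 fell and 15 did not pass in limma's test (37.5% changed, next to 39.9% of all 16213 genes tested, of which 19.3% rose and 20.6% fell). The median log2 fold change of the list was 0.0033, and that of all genes was -0.03. Topbp1 was at or near background and could not be tested.

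Within the origin recognition complex, which marks origins and recruits the loaders, Orc5 rose 2.34-fold, from 399 ± 17.6 to 935 ± 73.1 (SD, n = 3; log2 fold change 1.22 with an SE of 0.08; limma's adjusted p = 4.1e-08). The wild-type values were 397, 383 and 418 and the null values 1003, 943 and 858, and its other probe, ILMN_1221363, gave 1.18 on the log2 scale. Orc1, Orc2, Orc3, Orc4 and Orc6 did not pass, with log2 fold changes between -0.07 and 0.06. Of the loaders, Cdc6 did not pass (log2 fold change -0.05, adjusted p = 0.659 by limma). Cdt1, named after its values were seen, fell 1.23-fold (log2 fold change -0.30 with an SE of 0.10; limma's adjusted p = 0.0253), a call lost without wild-type array 1, wild-type array 2 or null array 1 (-0.28 to -0.20). Its inhibitor geminin (Gmnn) did not pass, at 0.18.

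The GINS complex, which with Cdc45 turns the ring into a working helicase, did not move as a unit. Gins2 rose 1.37-fold (log2 fold change 0.45 with an SE of 0.08; limma's adjusted p = 0.00066), from 1124, 1259 and 1058 to 1533, 1543 and 1623. Gins3 fell 1.49-fold (log2 fold change -0.57 with an SE of 0.09; limma's adjusted p = 9.8e-05), from 373, 390 and 436 to 255, 285 and 265. Gins1 (-0.14), Gins4 (-0.18) and Cdc45 (-0.23) did not pass. Both subunits of the kinase that phosphorylates the ring changed, in opposite directions. The catalytic subunit Cdc7 fell 1.32-fold (log2 fold change -0.41 with an SE of 0.09; limma's adjusted p = 0.0021), while the regulatory subunit Dbf4 rose 1.41-fold (log2 fold change 0.49 with an SE of 0.10; limma's adjusted p = 0.0017).

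The firing factors Recql4 and Ticrr rose 1.46-fold and 1.40-fold (adjusted p = 0.00038 and 0.00028 by limma). Tipin, a fork protection factor, rose at least 4.64-fold on probe ILMN_1234909, from background on all wild-type arrays to 273, 237 and 245. Its null signal alone brought this probe past the filter and made it the brighter Tipin probe by mean log2 intensity. Its p-value is therefore not given, and its place among the listed genes that rose rests on that choice of probe. The other tested Tipin probe, ILMN_1216801, gave 0.22 with an adjusted p of 0.116 by limma, so the probes of this gene disagreed as well. Mcmbp, an MCM-binding protein, did not pass on its brightest probe (0.14), but its other tested probe, ILMN_2660082, was higher in null cells (log2 fold change 0.31 with an SE of 0.10; adjusted p = 0.0203 by limma). That call was lost without wild-type array 3, null array 1 or null array 3 (0.22 to 0.29). The relative Mcm9 did not pass (-0.01), and its signal lay at the floor.

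**Figure D5:**
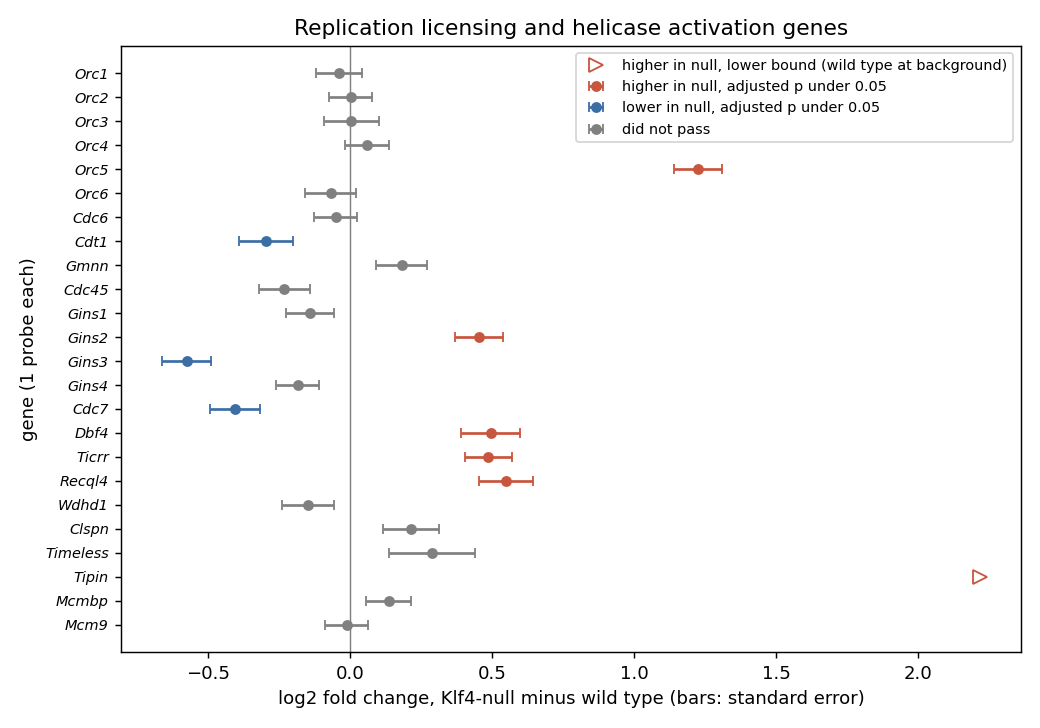
Log2 fold change (Klf4-null minus wild type, with standard error) of the 24 tested licensing and helicase activation genes, 1 probe each. Tipin, at background in wild type, is drawn at its lower bound (open triangle, at least 4.64-fold), Orc5 (1.22) also stands apart on the right, Gins3 (-0.57) and Cdc7 (-0.41) lie on the left, and 15 genes did not pass the test.

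The markers of dividing cells were a list of 12, chosen in the same way. In limma's test 4 rose, 0 fell and 8 did not pass (33.3% changed, next to 39.9% of all genes). At an unadjusted p under 0.05 by limma the numbers were 5 higher and 0 lower. The share of all genes at that looser threshold was not counted, so nothing is read from these numbers. The thymidylate synthase Tyms rose 1.42-fold (log2 fold change 0.51, SE 0.08), the proliferation antigen Mki67 1.36-fold (0.45, SE 0.10), cyclin B1 (Ccnb1) 1.26-fold (0.33, SE 0.10) and the ribonucleotide reductase subunit Rrm2 1.20-fold (0.26, SE 0.08). The adjusted p-values by limma were 0.00017, 0.0024, 0.0204 and 0.02. The call of Ccnb1 was lost without wild-type array 1 or 2 or null array 1 or 2 (log2 fold change 0.24 to 0.33, adjusted p 0.056 to 0.0882 by limma). That of Rrm2 was lost without wild-type array 1 or 3 or null array 2 (0.23 in each, adjusted p 0.0597 to 0.0944 by limma). The other Ccnb1 probe, ILMN_2753497, was also higher in null cells (0.31, adjusted p = 0.0139 by limma). The further Rrm2 probes disagreed, with 0.30 on ILMN_1257469 and -0.07 on ILMN_1239307 (adjusted p = 0.0143 and 0.623 by limma). The replication clamp Pcna did not pass (0.07, adjusted p = 0.687 by limma). Wild-type array 2 was the lowest wild-type array for 6 of these 12 genes and for 8 of the 24 licensing genes.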

How the data were processed

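The authors' deposited table gives 1 normalized intensity per probe and array, linear and positive, with medians of 51.7 to 51.8. Per the labels' protocols, biotinylated cRNA was prepared for Illumina arrays; how they were normalized and corrected for background is not given in the sources used here. Symbols came from a second deposited table, whose 12 columns of signals and detection p-values were left out, since their names match no sample. Symbols were updated through RefSeq names (GRCm38.p6): 25438 were current, 8745 were unique synonyms and 12438 were kept.

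Log2 intensities of the 6 arrays were fitted on group alone with limma 3.58.1 (lmFit, eBayes; R 4.3.3). P-values were 2-sided and adjusted by Benjamini-Hochberg over 21825 probes; a probe was called at an adjusted p under 0.05. The floor of each array was the 95th percentile of the spread below the mode, mirrored. "At least" ratios set the brighter group's mean log2 value against the floor. The procedure was tested on simulated data. The alternatives tried were 3 filters, 3 normalizations, 2 tests, a replicate block and leaving out each array. The number of arrays limits the precision.

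The MCM genes and both other lists were chosen with earlier results of these data known. Named genes are all MCM probes, up to 8 changed genes of each list with the largest log2 fold change, and the 5 probes most like the mean of the ring subunits. Changed fibroblast markers, the second Mcmbp probe and the further probes of Ccnb1 and Rrm2 were named after their values were seen.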

Additional observations from a re-analysis of the deposited data

How the results depend on the processing

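The number of changed probes was 8483 and 1766 in a test against 1.5-fold. That test left 1 MCM probe (ILMN_1217331 of Mcm6) and 2 licensing genes, and 0 of the 12 markers of dividing cells by limma's treat, with 0 at an unadjusted p under 0.05. Without eBayes moderation, each probe keeping its own variance, the number of changed probes was 6114. In that fit 3 MCM probes, 8 licensing genes and 2 markers passed. Ccnb1 and Mki67 were the markers lost, and the licensing genes Dbf4 and Cdt1 lost their calls as well. Leaving out each array in turn gave 7174 to 8248 changed probes, 3 to 5 MCM probes, 8 to 12 licensing genes and 2 to 5 markers (2 without wild-type array 1 and 2 without null array 2). The log2 fold change of Mcm7 on ILMN_2673890 changed sign in 4 of these 6 fits, between -0.12 and 0.064, never past the threshold. Mcm6 on ILMN_1217331 stayed between 5.03 and 5.35 and past the threshold under all 15 alternatives, and Mcm10 on ILMN_1252173 between 0.73 and 0.93, failing the test against 1.5-fold. Mcm4 on ILMN_2695747 also lost its call without wild-type array 3 or null array 3. Mcm7 on ILMN_1213616 and Mcm10 on ILMN_2679464 lost theirs without wild-type array 2 or null array 1, among others. The cause of the lost calls was not tested. All of these alternatives reuse the same 6 arrays, with which the MCM genes were chosen, so they lend the MCM probes no support. With the replicate number as a block, 8052 probes, 5 MCM probes, 10 licensing genes and 4 markers passed. No pairing by number was seen: deviations of same-numbered arrays correlated at -0.02, 0.05 and -0.22, and no array correlated best with its own number. The highest values were 0.27 for wild-type array 3 with null array 1 and 0.26 for wild-type array 2 with null array 3. What these share was not tested. After the data were seen, counting only probes under the family symbol was added and left 4 MCM probes, and representing each listed gene by its highest mean intensity gave 9 licensing genes and 4 markers. Mcm4 on ILMN_2752010 dropped out of the stricter filters, as did Tipin and Thy1 of 1 of them, and had no value there.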

Other observations

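Genes next to the MCM genes in the reference were described in the same way. The nearest protein-coding gene on each side of the 8 genes made 16 neighbours, of which 9 could be tested. Of these, 4 rose, 0 fell and 5 did not pass (44.4% changed). Of all genes tested 39.9% changed, 19.3% higher and 20.6% lower. Prkdc, the DNA-dependent protein kinase next to Mcm4, gave a log2 fold change of -0.22 (SE 0.10, adjusted p = 0.0944 by limma), and Dars, next to Mcm6, gave -0.19 (adjusted p = 0.0928 by limma). Trmt6, next to Mcm8, gave 0.18 (adjusted p = 0.145 by limma), and Cops6 and Ap4m1, on either side of Mcm7, gave 0.08 and -0.06. The neighbours that rose were Optn next to Mcm10 (log2 fold change 0.92, SE 0.12), the haem oxygenase Hmox1 next to Mcm5 (0.65, SE 0.10), Paqr8 next to Mcm3 (0.55, SE 0.09) and Crls1 next to Mcm8 (0.33, SE 0.08), with adjusted p-values by limma of 1.9e-05, 0.00018, 0.00027 and 0.0043. Optn and Paqr8 were near the floor in wild type, with means of 55.7 and 55.6 there.

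The probes whose log2 profile over the 6 arrays was nearest to the mean profile of the brightest probes of Mcm2, Mcm4, Mcm5, Mcm6 and Mcm7 were those of Slc6a6, Zfp397, Polr1b, Brpf1 and Dyrk1a. Their root mean square distances, on profiles centred on their own mean, were 0.021 to 0.031 on the log2 scale. The MCM probes themselves lay 0.053 to 0.19 from their mean, and 6999 of 13444 candidate probes lay nearer than the farthest of them, so the likeness is not particular to these genes. The mean profile is mostly the low value of wild-type array 2.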
